A study of Mus musculus with 8 samples.

Results

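Killer T cells carry their weapons in cytotoxic granules, and the genes described here make perforin and the parts that load, activate and release it. The list held 10 genes and was chosen by gene symbol. A gene counted as measured where the array had a probe set (a group of short probes for 1 transcript region) annotated with that symbol alone. This gave 8 measured genes with 14 probe sets, of 12393 genes on the array. The other 2, Unc13d and Stx11, which serve vesicle priming and fusion, had no such probe set and were not analysed here. All 8 measured genes passed the filter on low values.

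The cells were activated cytotoxic CD8 T cells of OT-1 mice, which carry a transgenic T cell receptor specific for an ovalbumin peptide. They spent 4 h with peptide-bearing cells of ID8, an ovarian cancer line of the mouse, at a ratio of 30 T cells to 1 target, before magnetic separation. In 1 group the ID8 cells overexpressed PD-L1, which engages the inhibitory receptor PD-1 on T cells, and in the other they were depleted of it; all else in the labels was common to both groups. The cells of each of 4 mice (A, B, C and D) went to both targets, giving 4 arrays per group and 2 arrays per mouse, so both arrays of a mouse share the same T cells. Age, sex and the constructs that altered PD-L1 are not given in the sources used here.

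When a killer T cell meets its target, granules travel to the contact site, dock, and fuse with the membrane. Perforin then opens pores through which granzymes, the granule proteases, enter the target. Inside the granule, serglycin holds perforin and granzymes in a packed core, lysosomal membrane glycoproteins line the wall, and cathepsin C trims granzymes into active form.

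Expression is given as deposited on the log2 scale, on which the 8 arrays ran from 3.60 to 15.24. The 9 measured CD8 T cell markers averaged between 12.14 and 12.22 on every array, with Cd3d between 13.90 and 14.03 and Cd8a between 12.48 and 12.79. Some tumour markers also gave signal: 12 of 24 on the array passed the filter, where 8003 of all 12393 genes did. The mean of these 12 lay between 7.83 and 8.92 with PD-L1-overexpressing and between 7.80 and 8.80 with PD-L1-depleted targets. Krt7, a keratin gene of epithelia, stayed low (4.85 to 5.20), while Krt8 read 8.16 to 8.91 and Epcam 8.87 to 9.77. Defining markers of NK cells, which also carry perforin, were low on every array (Ncr1 from 5.84 to 6.04, Klra8 from 4.35 to 4.80). Of the 4 NK markers on the array only Fcer1g passed the filter (7.23 to 9.32).

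The first comparison asked whether granule genes differ in T cells that met targets with much or little PD-L1. No member passed (0 of 8; limma with the mouse as a block, adjusted p = 0.9995 for each), where 0% of the 8003 genes tested passed. At an unadjusted p under 0.05 the count was also 0 of 8, against 2.85% of all genes. Over the 8 members the median difference, PD-L1-overexpressing minus PD-L1-depleted targets, was 0.026 on the log2 scale, and over all genes it was 0.0033.

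The pore-forming protein itself, perforin (Prf1), had a mean of 12.05 ± 0.31 (SD, n = 4) after PD-L1-overexpressing targets and of 12.03 ± 0.36 (SD, n = 4) after PD-L1-depleted ones. The difference of 0.020 (SE 0.033) had a 95% interval from -0.054 to 0.094, which is 0.963-fold to 1.07-fold. Srgn, which encodes serglycin, averaged 14.33 ± 0.047 and 14.33 ± 0.037 (SD, n = 4 each), and its interval from -0.034 to 0.044 was the narrowest of the 8 together with that of Nkg7 (-0.062 to 0.016). Srgn read close to the top of the scale, where a difference may be compressed. Nkg7, a granule membrane protein needed for efficient degranulation, averaged 13.77 ± 0.16 and 13.79 ± 0.16 (SD, n = 4 each).

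Cathepsin W (Ctsw), a cysteine protease made mainly by CD8 T and NK cells, differed by 0.039 (SE 0.027), and Ctsc, which encodes cathepsin C, by -0.0078 (SE 0.032). Rab27a, the small GTPase that docks granules at the membrane, differed by 0.068 (SE 0.044; 95% interval -0.030 to 0.17). Ctsw and Rab27a read higher with PD-L1-overexpressing targets in 4 of 4 mice, a pattern seen in 5.84% of all genes; 0 members read lower in 4 of 4, against 4.69%. In Rab27a these differences ran from 0.0024 in mouse C to 0.17 in mouse B, and in Ctsw from 0.016 in C to 0.080 in A. For Rab27a 4 of 4 held in the main probe set only. Another of its probe sets (1425284_a_at, mean 8.80) differed by 0.22, 0.020, -0.095 and 0.036 in mice A to D. Averaging of probe sets gave a Rab27a difference of 0.013 (SE 0.051). The lysosomal membrane glycoproteins Lamp1 and Lamp2 differed by 0.031 (SE 0.026) and 0.12 (SE 0.066). The interval of Lamp2, from -0.029 to 0.27, was the widest of the 8 and reached 1.21-fold.

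**Figure D1:**
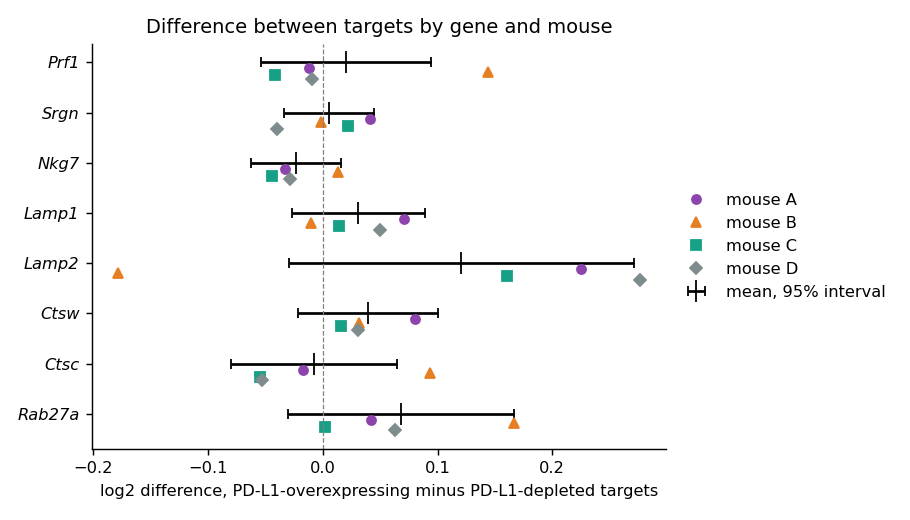
Difference between targets (log2, PD-L1-overexpressing minus PD-L1-depleted) for the 8 measured genes; vertical ticks with bars are the mean with its 95% interval and symbols are the 4 mice. All intervals cross 0, and the points of Lamp2 are spread widest, from -0.18 in mouse B to 0.28 in mouse D.

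Lamp2 was the gene in which the mice disagreed most between targets. With PD-L1-overexpressing targets its main probe set (1434503_s_at) read 10.35, 10.14, 10.24 and 10.38 in mice A to D. With PD-L1-depleted targets the readings were 10.12, 10.32, 10.08 and 10.10 in the same order. Thus 3 mice were higher with PD-L1-overexpressing targets and mouse B was lower, by 0.18, and the groups overlapped. A fit without mouse B called Lamp2 higher, by 0.22 (SE 0.038) or 1.17-fold (limma adjusted p = 0.00181), where 2.20% of all genes were called; 0 of the other 7 members passed in that fit. Mouse B decided this call, which was not made with all mice.

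Lamp2 had 4 probe sets, and its transcript exists in splice forms with different ends. The second (1416344_at, mean 9.998) differed by 0.13, -0.034, -0.078 and 0.046 in mice A to D. For the third (1428094_at, mean 9.70) the differences were 0.31, -0.18, 0.21 and 0.21. For the last (1416343_a_at, mean 7.66) they were 0.32, -0.092, 0.48 and 0.17. In 3 of the 4 probe sets mice A, C and D were therefore higher and mouse B lower with PD-L1-overexpressing targets. The same 3 passed in the fit without mouse B over 13576 probe sets (limma adjusted p from 0.00452 to 0.0265), and the second did not (0.83). The share of all probe sets that passed in that fit is not given here. Mouse B opposed the other mice in these 3, so leaving it out favours a call and is no separate support. The main Lamp2 probe set has a name ending that marks probes able to match more than 1 transcript, so its signal may not be from Lamp2 alone.

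The mean of the 12 tested tumour cell markers took the same directions. Its differences in mice A to D were 0.71, -0.97, 0.56 and 0.65, while the mean of the CD8 T cell markers differed by between -0.026 and 0.020. In the fit with all mice 8 of the 12 tumour markers were higher and 4 lower with PD-L1-overexpressing targets. Over all genes 4275 were higher and 3728 lower. Epcam went against the mean in mice B (9.77 with PD-L1-overexpressing, 9.63 with PD-L1-depleted targets) and C (9.38 and 9.63). Cav1 did so in C (7.54 and 7.96) and D (7.49 and 7.66). Without mouse B, 8 of the 12 tumour markers passed. In a fit that held the tumour marker mean as a covariate, chosen after the data were examined, the Lamp2 difference between targets was 0.062 (SE 0.035). In the same fit the slope of Lamp2 on that mean was 0.25 (SE 0.047, limma adjusted p = 0.00218), where 346 of 8003 genes passed. The slopes of the other members did not pass (adjusted p from 0.120 to 0.932). Such a slope does not measure how much of the Lamp2 signal is tumour RNA, and that part was not tested. In bulk samples such as these, fewer cells of a type and less RNA per cell cannot be told apart.

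Lamp1 went in the same directions as Lamp2 but by far less (0.071, -0.011, 0.014 and 0.050 in mice A to D). These 2 members had this order of signs, which 8.96% of all genes showed. The opposite signs, lower in A, C and D and higher in B, were seen in 3 members, against 13.4% of all genes. They were Prf1 (-0.012, 0.14, -0.042 and -0.0092), Nkg7 (-0.033, 0.013, -0.044 and -0.029) and Ctsc (-0.017, 0.094, -0.055 and -0.053). Of these differences, only that of Prf1 in mouse B was above 0.1.

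**Figure D2:**
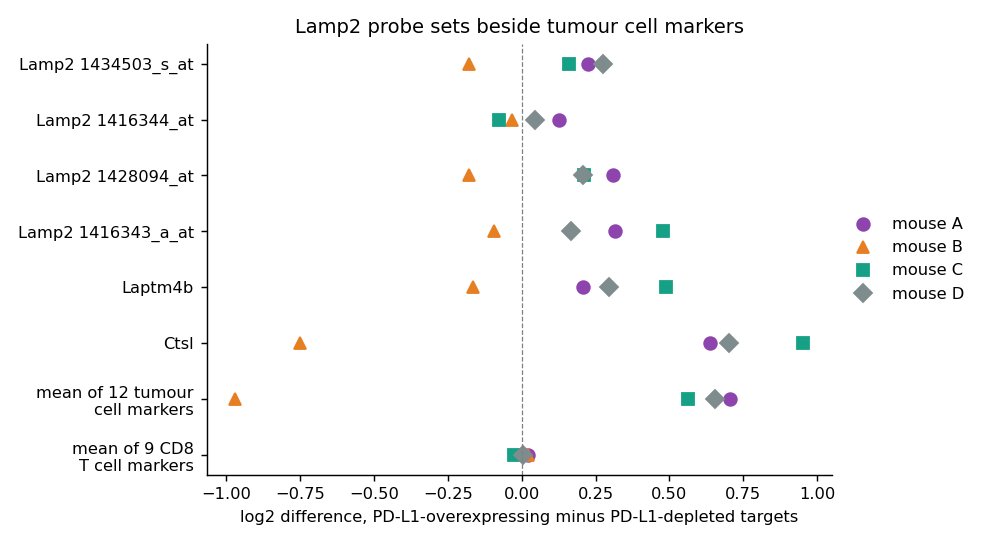
Difference between targets (log2, PD-L1-overexpressing minus PD-L1-depleted) in each of the 4 mice, for the 4 Lamp2 probe sets, the lysosomal genes Laptm4b and Ctsl, and the means of 12 tumour cell and 9 CD8 T cell markers. Mouse B lies left of 0 and mice A, C and D right of it in every line except 1416344_at of Lamp2 and the CD8 T cell markers, which lie near 0. Laptm4b and Ctsl were named for small p-values between targets in these data.

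The second comparison set the 4 mice against each other. The F test of limma, with the target as a covariate, called 6 of the 8 members different between mice, against 29.3% of all genes. They were Ctsw (adjusted p = 3.05e-07), Prf1 (2.32e-05), Nkg7 (4.51e-05), Rab27a (0.000203), Lamp1 (0.0118) and Ctsc (0.0245). Without mouse A the count was 2 of 8, Prf1 and Rab27a, where 7.20% of all genes passed. With eBayes without a trend it was 4, and Lamp1 and Ctsc did not pass. Between pairs of mice, 4 members passed for B against A (21.6% of all genes), 7 for C against A (25.2%), 6 for D against A (25.5%), 4 for C against B (8.33%), 0 for D against B (3.95%) and 2 for D against C (3.22%). Both arrays of a mouse come from the same cells, so the error here is that among co-cultures of 1 animal's cells; what differed between the animals or their cultures is not in the labels.

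Mouse identity accounted for most of the variance of the 6 genes that passed, which follows in part from picking them by the F test between mice. Its share was 99.8% for Ctsw, 98.7% for Nkg7, 98.3% for Prf1, 97.2% for Rab27a, 92.3% for Lamp1 and 87.6% for Ctsc, against a median of 73.8% over all genes. For Srgn, which did not pass, the share was 82.7%. For Lamp2 the share was 9.12%, with 28.8% for the target and 62.1% for the remainder.

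**Figure D3:**
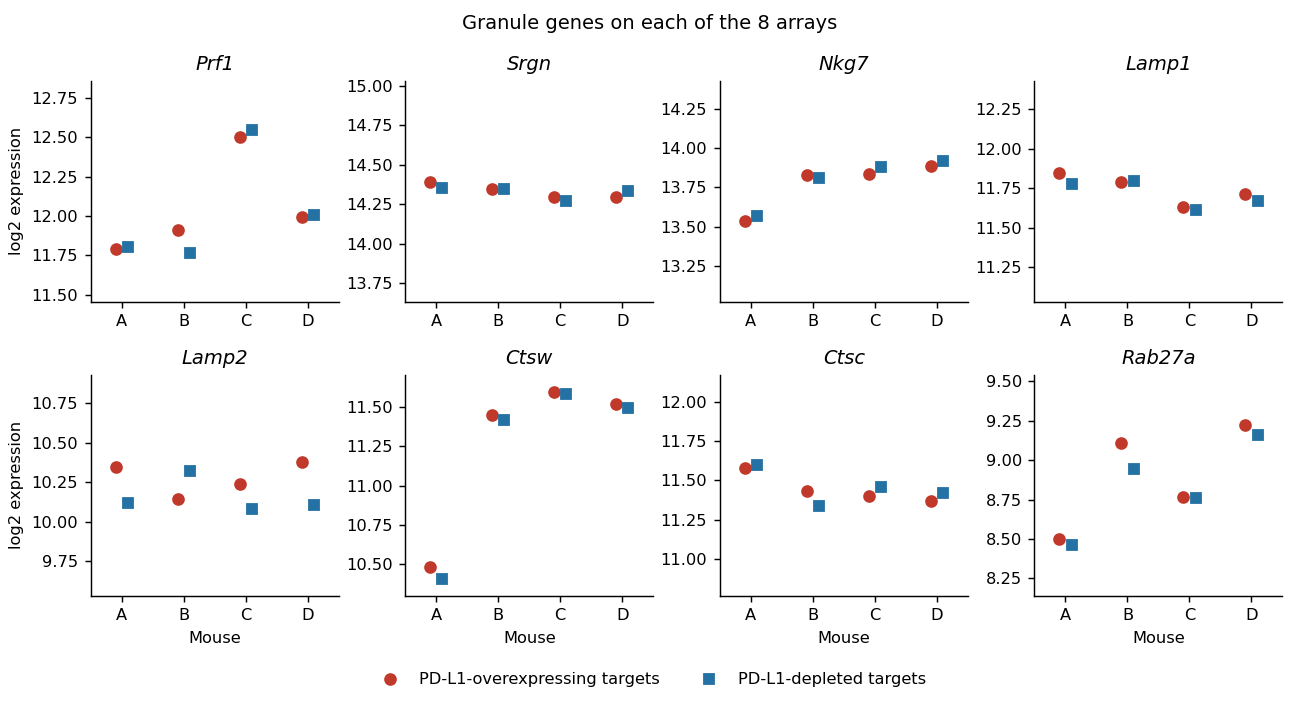
Log2 expression of the 8 measured genes on each array, by mouse (A to D), with circles for PD-L1-overexpressing and squares for PD-L1-depleted targets; each panel spans 1.4 log2 units. Ctsw is low in mouse A (10.49 and 10.41), Prf1 is high in mouse C (12.50 and 12.55), and Srgn is nearly level.

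Ctsw showed the largest difference between mice of the 8 genes. It read 10.49 and 10.41 in mouse A (PD-L1-overexpressing targets first, then PD-L1-depleted, here and for the other genes), 11.45 and 11.42 in B, 11.60 and 11.58 in C, and 11.52 and 11.49 in D. Both arrays of mouse A lay below all 6 others, with no overlap. Mouse A was 2.09-fold lower than the mean of the other mice (-1.06, SE 0.031, limma adjusted p = 4.26e-08). Among pairs of mice, each of B, C and D differed from A, and C from B (adjusted p = 0.0391); D did not pass against C or B. Ctsw was the only member whose highest mouse exceeded its lowest by over 2-fold (2.21-fold), as 0.962% of all genes did.

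Prf1 had its mouse means in the same order as Ctsw, but mouse C stood apart rather than mouse A. It read 11.79 and 11.81 in mouse A, 11.91 and 11.77 in B, 12.50 and 12.55 in C, and 11.996 and 12.01 in D. Mouse C stood above all other arrays, while the arrays of mice A and B overlapped. Prf1 was 1.56-fold higher in mouse C than in the mean of the others (0.65, SE 0.038, adjusted p = 3.00e-05), and the call held in each alternative run, with a smaller difference when probe sets were averaged (0.38). It was lower in mouse A (-0.32, SE 0.038, adjusted p = 0.000306) and in mouse B (-0.27, SE 0.038, adjusted p = 0.00296), and averaging of probe sets gave -0.19 for A. Both of those comparisons have mouse C on the other side, and without it neither passed (-0.12, adjusted p = 0.0678, for A and -0.060, adjusted p = 0.404, for B), while D passed as higher without mouse C (0.18, adjusted p = 0.0313) and as lower without mouse B (-0.16, adjusted p = 0.000341). The order was C, D, B and A, in which C differed from D, while D and B (adjusted p = 0.0921) and B and A (0.573) did not pass. A second Prf1 probe set (1450335_at), much dimmer at 7.005 to 7.23, had its mean highest in mouse C as well (7.20, against 7.08 to 7.12) but did not pass the F test (adjusted p = 0.61).

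Rab27a was lowest in mouse A and next lowest in C. It read 8.50 and 8.46 in A, 9.11 and 8.94 in B, 8.77 and 8.76 in C, and 9.22 and 9.16 in D. No array of A or C overlapped with one of B or D. Mouse A was 1.43-fold lower than the mean of the others (-0.51, SE 0.050, adjusted p = 0.000104) and mouse D 1.35-fold higher (0.43, SE 0.050, adjusted p = 0.00107). The call in D was lost with the mean of the probe sets (0.22, adjusted p = 0.0603). B against C passed (adjusted p = 0.0333), as did C against A (0.0106), and D against B did not (0.175). A second probe set (1425284_a_at, mean 8.80) gave -0.69 (SE 0.063) for mouse A and 0.43 (SE 0.063) for D. The last (1454438_at, mean 5.98) was under the filter.

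Nkg7 was lower in mouse A and close to level in the rest. It read 13.53 and 13.57 in A, 13.83 and 13.81 in B, 13.84 and 13.88 in C, and 13.89 and 13.91 in D. Mouse A lay below every other array and was 1.24-fold lower than the others' mean (-0.31, SE 0.020, adjusted p = 7.85e-06). None of the 3 pairs among B, C and D passed (adjusted p from 0.102 to 0.485).

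Ctsc and Lamp1 went the other way in mouse A, by small amounts. Ctsc read 11.58 and 11.60 in A and between 11.34 and 11.45 in the other mice, a 1.14-fold difference (0.18, SE 0.037, adjusted p = 0.00559). Lamp1 read 11.85 and 11.77 in A, 11.79 and 11.80 in B, 11.63 and 11.61 in C, and 11.72 and 11.67 in D. Lamp1 was 1.08-fold higher in mouse A (0.11, SE 0.030, adjusted p = 0.0225) and 1.10-fold lower in mouse C (-0.14, SE 0.030, adjusted p = 0.0211). The call in A was lost without a variance trend (adjusted p = 0.077), without mouse C (0.169) and without D (0.0900), and that in C without a trend (0.0863) and without mouse A (0.0868). Srgn did not pass the F test (adjusted p = 0.0734) and spanned 0.12 over the 8 arrays, from 14.27 to 14.39. Its highest values were in A and its lowest in C, and only C against A passed among pairs (-0.090, SE 0.024, adjusted p = 0.0265).

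By the test of each mouse against the other 3, mouse A had 2 members higher and 4 lower (background 18.1% and 12.7% of all genes), mouse B had 2 higher and 1 lower (6.30% and 2.96%), mouse C had 3 higher and 1 lower (3.09% and 5.35%), and mouse D had 3 higher and 0 lower (4.56% and 4.09%). These comparisons share arrays, since each mouse is also part of the mean the others are set against. In mouse C the genes higher were Prf1, Nkg7 (0.10, SE 0.020) and Ctsw (0.46, SE 0.031). In mouse D they were Nkg7 (0.16, SE 0.020), Ctsw (0.35, SE 0.031) and Rab27a. In mouse B they were Ctsw (0.25, SE 0.031) and Rab27a (0.22, SE 0.050). Mouse A, low in these genes, is in the mean in each case: without it, Ctsw in C (0.12, adjusted p = 0.0887), Ctsw in D (-0.0065) and B (-0.11, adjusted p = 0.0784), Nkg7 in C (-0.00099) and D (0.062, adjusted p = 0.245), and Rab27a in B (0.050, adjusted p = 0.627) did not pass. Rab27a in B was also lost with the mean of the probe sets (adjusted p = 0.0535), with array weights (0.0971) and without mouse C (0.0787), and Nkg7 without a trend in C (0.152) and D (0.0645). Both arrays of a mouse lay outside the range of the other 6 for 5 members of mouse A (36.2% of all genes), 0 of B (16.2%), 4 of C (14.9%) and 2 of D (13.6%).

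**Figure D4:**
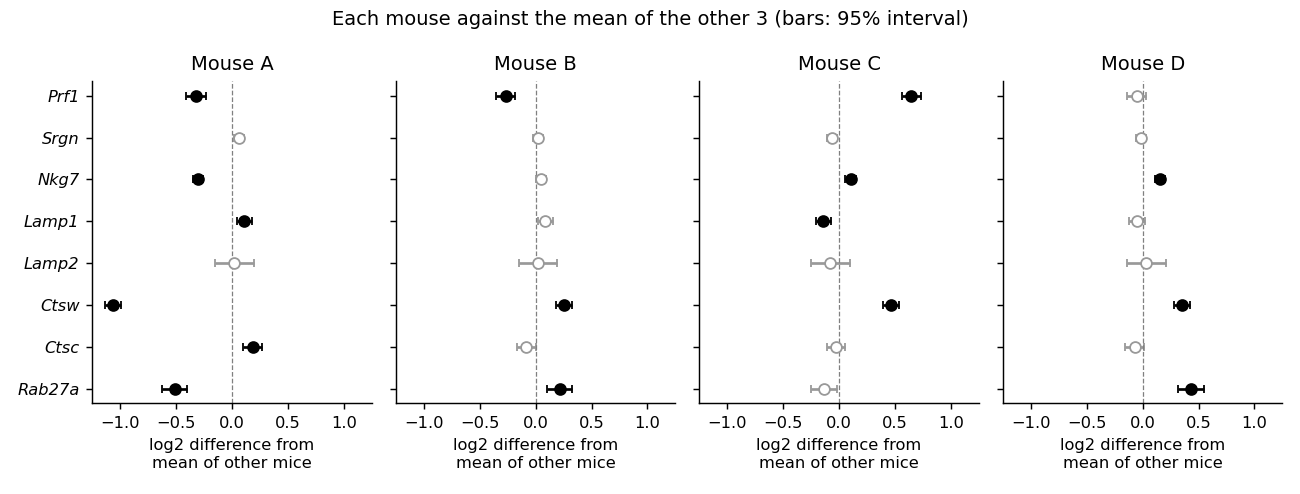
Log2 difference of each mouse from the mean of the other 3, by gene, with 95% intervals; filled points passed the limma test over all genes (adjusted p under 0.05). Ctsw, Rab27a, Prf1 and Nkg7 lie left of 0 in mouse A, and Prf1 lies farthest right in mouse C, at 0.65.

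Some markers of other cells also differed between mice. By the limma F test 4 of 4 tested B cell markers and 1 of 1 tested NK marker passed, against 29.3% of all genes. Of the tested tumour markers 3 of 12 passed, of the CD4 and regulatory T cell markers 1 of 3, and of the erythroid and platelet markers 0 of 2. Fcer1g, an adaptor of Fc receptors in NK and myeloid cells, read 7.23 and 7.44 in mouse A and 8.50 to 9.32 in the others. Tyrobp, also of the NK list and under the filter by its mean, read 6.28 and 6.28 in A and 6.59 to 7.04 in the others. Ncr1 and Klra8 read at most 6.04. The 4 B cell markers above the filter (Ighm, Cd74, H2-Aa and H2-Ab1) averaged 10.02 and 10.05 in A and 10.19 to 11.35 in the others. Of these, H2-Aa was itself under the filter in A (6.77), and Cd74 was lower in C (11.96 and 11.99) than in A (12.40 and 12.43). The other 7 of the 11 B cell markers on the array, Ms4a1 (6.01 to 6.38) among them, were under the filter. Of the tested macrophage and dendritic cell markers 1 of 3 passed the limma F test between mice, Cd68 (adjusted p = 0.00204). It read 7.51 and 7.51 in A, 7.67 to 7.74 in B and D, and 8.07 and 8.15 in C. Of the tested neutrophil and mast cell markers 1 of 2 passed. Kit of that list read 7.77 and 7.56 in A and 8.44 to 9.03 in the others. The CD8 T cell marker mean was 12.20 and 12.22 in A and 12.14 to 12.22 in the others. Single CD8 T cell markers were not level. By the limma F test 7 of the 9 differed between mice, against 29.3% of all genes. In mouse A 3 were higher and 4 lower, where 18.1% and 12.7% of all genes were. Cd5 read 11.29 and 11.30 in A and 10.40 to 10.85 in the others. Cd247 read 10.27 and 10.27 in A and 10.41 to 10.62 in the others. The part of other cells in the differences between mice was not tested.

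Upstream sequence is shown for 3 of the genes that were lower in mouse A, Prf1, Nkg7 and Rab27a, and for Lamp1, which was higher. RefSeq windows (GRCm38.p6) were matched for 8 of the 10 listed genes, all but Ctsw and Unc13d. The windows printed were picked because they hold matches. Each line gives the 250 bases before the annotated start, and for Rab27a the first of its starts. Capitals mark the letters GGTGTGA, a core bound by T-box factors such as T-bet and Eomes; TGTGGT, bound by RUNX factors; and CACGTG, the E-box core shared by many lysosomal genes, each searched on both strands.
Prf1, chr10:61297586-61297835, plus strand: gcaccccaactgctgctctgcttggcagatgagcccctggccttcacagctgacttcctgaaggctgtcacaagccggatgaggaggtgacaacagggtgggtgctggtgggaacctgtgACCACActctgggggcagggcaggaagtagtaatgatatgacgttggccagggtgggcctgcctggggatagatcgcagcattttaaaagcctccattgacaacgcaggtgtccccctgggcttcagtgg
Nkg7, chr7:43436888-43437137, plus strand: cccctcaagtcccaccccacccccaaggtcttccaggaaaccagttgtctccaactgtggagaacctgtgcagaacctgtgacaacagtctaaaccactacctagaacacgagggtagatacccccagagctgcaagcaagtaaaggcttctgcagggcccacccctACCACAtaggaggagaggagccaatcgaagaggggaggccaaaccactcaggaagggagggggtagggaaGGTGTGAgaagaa
Rab27a, chr9:73044560-73044809, plus strand: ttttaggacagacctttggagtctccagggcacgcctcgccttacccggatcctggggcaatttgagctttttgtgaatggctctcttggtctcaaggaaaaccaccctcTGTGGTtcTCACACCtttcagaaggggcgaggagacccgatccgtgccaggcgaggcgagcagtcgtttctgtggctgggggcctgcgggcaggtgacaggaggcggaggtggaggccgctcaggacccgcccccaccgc
Lamp1, chr8:13158911-13159160, plus strand: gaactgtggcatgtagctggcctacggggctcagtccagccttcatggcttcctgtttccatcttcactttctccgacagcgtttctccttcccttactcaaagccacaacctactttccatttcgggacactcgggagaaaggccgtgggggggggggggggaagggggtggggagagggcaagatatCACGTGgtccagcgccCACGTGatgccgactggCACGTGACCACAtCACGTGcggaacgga

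Prf1 held a RUNX match that begins 130 bases before the start. Nkg7 held a RUNX match at 83 bases and a T-box match at 13 bases, and Rab27a a RUNX match at 140 and a T-box match at 132 bases, close together. Among windows not printed, that of Ctsc, which was higher in mouse A, held a T-box match at 117 bases, a second window of Srgn a RUNX match at 202 and a second window of Rab27a an E-box at 246 bases. The windows of Lamp2 and Stx11 held none of the 3 motifs. Of 32851 windows of the same length, 14.0% held the RUNX letters, 3.33% the T-box letters and 0.609% both. Lamp1 held CACGTG 4 times, at 61, 45, 28 and 15 bases before the start, and a RUNX match at 22 bases that adjoins the third of these E-boxes without overlap. CACGTG occurred in 6.02% of windows and at least 4 times in 0.0213% (7 windows). These are letter matches only and say nothing of binding in these cells. Among the factors named, Tbx21, which encodes T-bet (-0.29, SE 0.047, adjusted p = 0.00192), and Eomes (-0.21, SE 0.065, adjusted p = 0.0373) were lower in mouse A. Runx3 (-0.0084, SE 0.051, adjusted p = 0.923) and Runx1 (-0.086, SE 0.069, adjusted p = 0.389) did not pass. Tbx21 and Eomes are named here outside the rule for named genes, after their values were seen.

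The genes around the members were then read from 7 lists of granule biology. In mouse A, 7 of 7 tested granzymes were lower, and the median was -2.44, against 0.022 over all genes; for this and the lists that follow, 18.1% of all genes were higher and 12.7% lower in mouse A. Gzmd read 8.45 and 8.51 in A against 11.27 to 12.17 in the others, Gzma 8.56 and 8.67 against 10.58 to 12.10, and Gzme 7.90 and 8.03 against 10.19 to 10.81. Gzmg read 5.58 and 5.86 in A, under the filter of 6.87, and 9.31 to 10.14 in the others. Gzmf was lower by less (-1.72, SE 0.049), Gzmc differed by -0.41 (SE 0.030, adjusted p = 1.68e-05), and Gzmb, the main granzyme of killer cells, by -0.096 (SE 0.017, adjusted p = 0.00315). Granzymes are close in sequence, so probes may cross between them.

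Genes of vesicle fusion and granule transport were split. Of 45 tested, mouse A had 8 higher, near the share over all genes, and 9 lower, and their median was 0.028. Sytl2, an effector of Rab27 proteins in granule docking, was lowest in A (7.71 and 7.82, against 8.62 to 8.77; -0.94, SE 0.052, adjusted p = 2.99e-06). The SNARE genes Vamp3 (-0.33, SE 0.036) and Vti1b (-0.26, SE 0.037) were lower, and the syntaxin gene Stx6 was higher (0.25, SE 0.033). Between targets 0 of the 45 passed. Kif5b, the motor that carries lysosomes along microtubules, differed by 0.13 (SE 0.054), and by 0.20 (adjusted p = 0.00649) without mouse B. Rab11a, a GTPase of recycling endosomes, differed by 0.049 (SE 0.025).

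Lysosomal hydrolases and their inhibitors had 9 of 27 higher and 5 lower in mouse A (median 0.077). Ctsz, the protease cathepsin Z, was higher by 0.48 (SE 0.029), Cst3, the inhibitor cystatin C, by 0.40 (SE 0.022) and Psap, which encodes activators of lipid breakdown, by 0.26 (SE 0.027). Cst7, cystatin F, an inhibitor of cathepsin C, was lower (-0.20, SE 0.027) and in mouse C was higher (0.24, SE 0.027), so it took the direction of Prf1 in both mice. Ctsl, which encodes cathepsin L, had differences between targets of 0.64, -0.75, 0.95 and 0.70 in mice A to D. As with Lamp2, it passed without mouse B (0.76, SE 0.055, adjusted p = 1.19e-08) and not with all mice (0.39, SE 0.22).

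Genes of the lysosome membrane and its formation had 8 of 30 higher and 3 lower in mouse A (median 0.046). The proton pump genes Atp6ap2 (0.31, SE 0.040) and Atp6v1a (0.25, SE 0.035) were higher, and Scarb2 (-0.22, SE 0.043) and Cd68 (-0.34, SE 0.060), membrane glycoproteins like the Lamp proteins, were lower. Laptm4a and Laptm4b, lysosomal transmembrane proteins, differed between targets by 0.11 (SE 0.035) and 0.21 (SE 0.086), and by 0.16 (adjusted p = 0.00245) and 0.33 (0.000258) without mouse B. Laptm4a, Laptm4b, Ctsl and Kif5b were named for small p-values between targets in these data. Values without mouse B are not given for other list genes, so these calls are no count for the lists. Of all genes 2.20% passed in that fit.

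Enzymes that build the sugar chains of serglycin had 2 of 12 higher and 2 lower in mouse A (median 0.0076), near the shares over all genes. Slc35b2, which imports the sulphate donor into the Golgi, was lower (-0.22, SE 0.043), as was B4galt7 (-0.20, SE 0.064), which adds a galactose to the linker. Chpf, a chondroitin polymerising factor (0.23, SE 0.056), and Chst15, a sulphotransferase (0.31, SE 0.084), were higher. B4galt7 differed between targets by -0.13 (SE 0.055), and Chpf by -0.078 (SE 0.048).

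Transcription factors of effector genes had 10 of 18 higher and 5 lower in mouse A (median 0.19). Id2, which favours effector cells, was lower (-0.51, SE 0.031), and Notch2 (0.55, SE 0.040), Stat5a (0.42, SE 0.043) and Stat5b (0.37, SE 0.047) were higher. Runx3 and Runx1 differed between targets by -0.10 (SE 0.044) and -0.11 (SE 0.060). Of the genes that protect cells from granule proteins, 2 of 5 were higher and 1 lower in mouse A. Serpinb9, the inhibitor of granzyme B, was higher by 0.17 (SE 0.030) and Serpinb9b by 0.39 (SE 0.053), while Serpinb6a was lower (-0.20, SE 0.026) and Serpinb6b did not pass (0.11, SE 0.039). Between targets 0 genes of any of these lists passed in the fit with all mice.

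**Figure D5:**
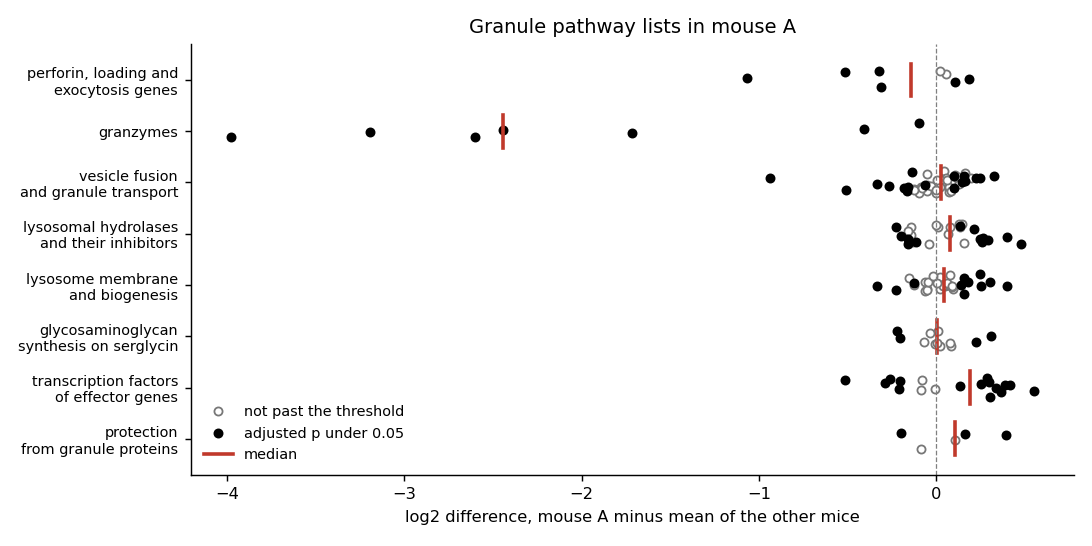
Log2 difference of mouse A from the mean of the other mice for each tested gene of 8 lists; filled points passed the limma test (adjusted p under 0.05) and vertical bars are list medians. The granzymes run from Gzmg, farthest left, to Gzmc (-0.41) and Gzmb (-0.096) near the other lists, with a median of -2.44, and the medians of the other lists lie between -0.14 and 0.19.

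The genes whose 8 values most resembled those of the 3 members with the widest range were found by the root mean square difference of centred log2 values over the 8 arrays. For Ctsw they were Klra5, a killer lectin-like receptor (0.073), Sytl2 (0.10) and Mvd, an enzyme of sterol synthesis (0.11). For Prf1 they were Itih5 (0.082), the endosomal glycoprotein gene Cd68 (0.099) and Rgs10, a regulator of G protein signalling (0.11). Cd68 is also on the list of macrophage and dendritic cell markers. For Rab27a they were Gbp7, an interferon-inducible GTPase (0.053), Gstk1, a glutathione transferase (0.056), and Rrad, a small GTPase (0.069). In mouse A, Rrad (6.76 and 6.72) and Klra5 (6.27 and 6.17) were under the filter. Among the 3 members, Prf1 and Ctsw differed by 0.38 on this measure, Prf1 and Rab27a by 0.40, and Ctsw and Rab27a by 0.31; the genes named were picked as the nearest of all genes, so these values are not comparable with theirs. The 8 arrays come from 4 mice, so these profiles rest largely on 4 animals.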

How the data were processed

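Total RNA was labelled with biotin for 3' expression arrays, 1 per sample (8), per the labels' protocols. The authors deposited 1 log2 value per probe set and array. That scale is inferred from the range, and the summarisation, normalisation and software are not given in the sources used here. When sorted, the 8 arrays matched to within 0.167 at every rank, so a shift common to most genes may not show. Detection calls were not used here, and the number of arrays limits the precision. The table held 0 columns of other samples.

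The platform annotation gave 1 symbol for 20380 of 22690 probe sets, several for 691 and none for 1555; 64 were controls. Each gene was read from its brightest probe set. Testing required an average of at least 6.87 (percentile 40 of non-control probe sets), which left 8003 of 12393 genes.

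Tests used limma 3.58.1 in R 4.3.3 (lmFit, eBayes with a trend), two-sided, Benjamini-Hochberg adjustment over all genes and a threshold of 0.05. The model held the mouse as a fixed block and the target; the F test and the contrasts of 1 mouse with the mean of the other 3 came from the same model. Pairing comes from the series design and the titles. Deviations of a mouse's arrays from their group means correlated at 0.82, 0.16, 0.61 and 0.64 in A to D. Pairs of mice, a fit of every probe set and one with the tumour marker mean were added after the data were examined. The steps were tested on simulated data.

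Members, lists and contrasts were chosen with earlier results of these data known. The genes named were all members, from each list up to 4 with the smallest p between mice and 2 between targets, and the 3 nearest in profile to each of the 3 most variable members. Fcer1g and other marker genes are named from fixed marker lists, of which those for macrophages, neutrophils and mast cells, CD4 T cells, and red cells and platelets had 3, 2, 3 and 2 genes above the filter and 0 passing between targets. Motif letters and the promoters printed were chosen after the values were seen. Alternatives were no block or a random block for the mouse, array weights, eBayes without a trend or robust, averaging of probe sets, filters (none, percentile 60), centring on medians, quantiles, and leaving out each mouse.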

Additional observations from a re-analysis of the deposited data

Results flagged for a closer look

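An array was marked where its distance to the next value took up most of the range of its group of 4 (given as a share of that range), for each gene and member probe set named and for the tumour marker mean. Of 116 groups of values, 13 had an array far from the rest, where chance gives about 1 in 20, or 5.80, and all 13 lay in mouse A. Most list genes had been named for small p-values between mice, and Klra5 and Mvd for their likeness to Ctsw, so the count reflects that choice and is not to be read against chance. Ctsw was the only member among them: mouse A was lowest after both PD-L1-overexpressing (0.867) and, separately, PD-L1-depleted targets (0.861). Around the members, mouse A was lowest with both targets for Sytl2 (0.878 and 0.887), Serpinb6a (0.830 and 0.835), Klra5 (0.915 and 0.857) and Mvd (0.901 and 0.865). It was lowest for Gzmg with PD-L1-overexpressing targets (0.851) and for Id2 with PD-L1-depleted targets (0.985), and highest for Atp6ap2 with PD-L1-depleted targets (0.910). Klra5 and Gzmg were under the filter in mouse A.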

How the results depend on the processing

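With no replicate block, which drops the pairing, the comparison of targets still called 0 genes and 0 members. With the mouse as a random block it also called 0 genes and 0 members. Leaving out a mouse gave 0 to 1 member and 0 to 176 genes between targets; the upper values are without mouse B, and the member is Lamp2. With the tumour marker mean as a covariate 3 genes and 0 members passed. Between mice, leaving out a mouse gave 2 to 7 members and 576 to 3555 genes, the lower values without mouse A. Counts of members differing in 1 mouse moved to 5 in B with median centring and to 2 in C without a trend, and leaving out a mouse gave 2 to 5 in C and 1 to 5 in D.

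Differences between targets that changed sign were small and passed under no setting. They were Prf1 with the mean of probe sets (-0.017), with array weights (-0.00025) and on leaving out a mouse (-0.021 to 0.041); Srgn with quantile normalisation (-0.0067), array weights (-0.0013) and a mouse left out (-0.0065 to 0.020); and Ctsc with median centring (0.00027), the tumour covariate (0.012) and a mouse left out (-0.042 to 0.0079). Between mice, quantile normalisation turned Lamp2 in A (-0.0042) and B (-0.0043) and Srgn in B (-0.011) and D (0.017), and the mean of probe sets turned Lamp2 in A (-0.039). With a mouse left out, ranges that crossed 0 were -0.0050 to 0.037 for Lamp2 in A; in B -0.00024 to 0.045 for Srgn, -0.061 to 0.11 for Nkg7, -0.0045 to 0.038 for Lamp2 and -0.11 to 0.46 for Ctsw; in C -0.00099 to 0.17 for Nkg7, -0.064 to 0.036 for Ctsc and -0.34 to 0.011 for Rab27a; and in D -0.18 to 0.18 for Prf1, -0.041 to 0.0038 for Srgn and -0.0065 to 0.57 for Ctsw. Leaving out a mouse changes the mean the others are set against; for the other settings the cause was not tested. Of all such values for single members, 108 between targets and 306 between mice kept their direction and their side of the threshold; 0 and 16 lost a call, 1 and 14 gained one, and 11 and 16 changed sign. Values near the ends of the scale, such as those of Srgn, may be compressed.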
